A study of Mus musculus with 6 samples.

Results

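The circadian clock genes Per1, Per2, Nr1d1, Nr1d2, Dbp, Tef, Arntl, Clock, Bhlhe40 and Bhlhe41 were examined in mouse primary microglia (PM). These 10 genes were taken by symbol from a list of core clock and clock-output transcription regulators. The list was chosen with earlier results of these data known. All 10 were found among the 24411 gene features of the count tables. Both groups of PM received GSK-J4 (10 μM), a cell-permeable inhibitor of the H3K27 demethylases JMJD3 and UTX. In the first group GSK-J4 was given alone, and in the second it was combined with lipopolysaccharide (LPS, 10 ng/ml), a bacterial ligand of TLR4, and cells of both were taken at 4-h. Each group had 3 RNA-seq libraries. PM came from the pooled brains of neonatal ICR mice, were shaken off mixed glial cultures and were then plated again. The study calls the libraries of a group biological replicates, but the labels do not tie a library to its own pool of brains, so p values here measure the spread between these libraries only. Every fold change compares LPS + GSK-J4 with GSK-J4 and measures what LPS added in the presence of the inhibitor. The labels do not give the order in which the agents were added. Untreated PM and PM with LPS alone were not analysed here.

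The mammalian clock is a feedback loop of transcription with a period of about a day. CLOCK and BMAL1, the product of Arntl, bind E-box sequences as a pair and activate Per, Cry, Nr1d, Dbp, Tef and Bhlhe genes, whose products then restrain the pair or pass the rhythm on. The REV-ERB receptors, encoded by Nr1d1 and Nr1d2, repress Arntl, and in macrophages and microglia the clock is known to gate inflammatory responses. The time of day of harvest is not given in the sources used here and the groups hold a single time point. A change in the level of a clock gene and a shift in the phase of its rhythm therefore cannot be told apart.

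The libraries held 2597505 to 3472716 counted fragments on genes. Levels are given as CPM, counts scaled to library size with TMM factors, and 3 counts corresponded to 0.673 to 1.24 CPM. This floor covers counting error only. The clock genes had between 4 and 3698 counts in a library, so their precision differed widely. The ribosomal RNA precursor Rn45s took 22.2 to 32.4% of all counts with GSK-J4 alone and 45.8 to 48.1% with LPS, and its removal with Mir6236 and Lars2 changed no call of a clock gene, apart from Per2, which then no longer passed the filter on low counts. Replicate 3 of each group stood apart from replicates 1 and 2 on the second principal component (16.2% of the variance). Between the counts of replicates 1 and 2, chi-square per degree of freedom was 2.12 with GSK-J4 alone and 2.32 with LPS. Between each of them and replicate 3 it was 12.2 and 12.5 with GSK-J4 alone and 5.81 and 5.88 with LPS. Why replicates 1 and 2 were more alike was not tested. The 7 markers fixed for microglia summed to 2140 to 2249 CPM with GSK-J4 alone and to 1666 to 1736 CPM with LPS. All 7 had counts in every library and a negative log2-fold change. Cx3cr1 (edgeR adjusted p = 0.00354) and Csf1r (edgeR adjusted p = 0.0045) were called lower with LPS. P2ry12, Aif1 and Tmem119 were low, with means of 13.2, 6.37 and 5.01 CPM with GSK-J4 alone. With LPS their means were 9.21, 5.08 and 2.66 CPM. The summed markers of each other cell type were lower than the microglial sum, and most of these sums were higher with LPS. The sum of 5 astrocyte markers was 29.0 to 32.1 CPM without LPS and 71.4 to 96.6 CPM with it, and that of 6 oligodendrocyte lineage markers 112 to 136 and 203 to 235 CPM. The sum of 5 mesenchymal markers was 71.8 to 262 CPM without LPS and 132 to 393 CPM with it. The 4 neuronal markers summed to 6.06 to 7.08 CPM without LPS and 14.1 to 16.4 CPM with it, with Rbfox3, Snap25 and Syt1 each below 1 CPM on average. The 3 endothelial markers summed to 11.2 to 16.3 and 18.0 to 55.3 CPM, and the defining marker Cldn5 had no count. Fewer cells of a type and less RNA per cell cannot be told apart in such bulk libraries, and the part of these markers in the clock results was not tested.

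The addition of LPS lowered 4 of the 10 clock genes and raised 1. Bhlhe40, Bhlhe41, Dbp and Per1 fell, Arntl rose, and Per2, Nr1d1, Nr1d2, Tef and Clock did not pass the test, edgeR's quasi-likelihood test with p values adjusted by Benjamini-Hochberg over all genes and a limit of 0.01. All 10 genes were expressed enough to be tested among 10133 genes. Among all genes tested, 5.46% fell and 8.42% rose by this test, beside the 4 and 1 of 10 given here. Because the panel was chosen with earlier results of these data known, these shares describe it and do not test it. When the study's fold limit, a log2-fold change of 1.5 up or down, was added, 0.809% of all genes fell and 2.95% rose, beside 3 clock genes that fell (Bhlhe40, Bhlhe41 and Dbp) and none that rose. Without LPS + GSK-J4 replicate 3, Per1 passed this condition as well. The median log2-fold change of the 10 genes was -0.55 with a range of -1.91 to 0.84. The median of all genes tested was -0.00064, a value that the TMM scaling itself holds close to 0. The libraries of the groups did not overlap for 7 of the 10 genes, 6 of them lower and 1 higher with LPS, beside 18.4% of all genes lower and 19.8% higher.

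**Figure D1:**
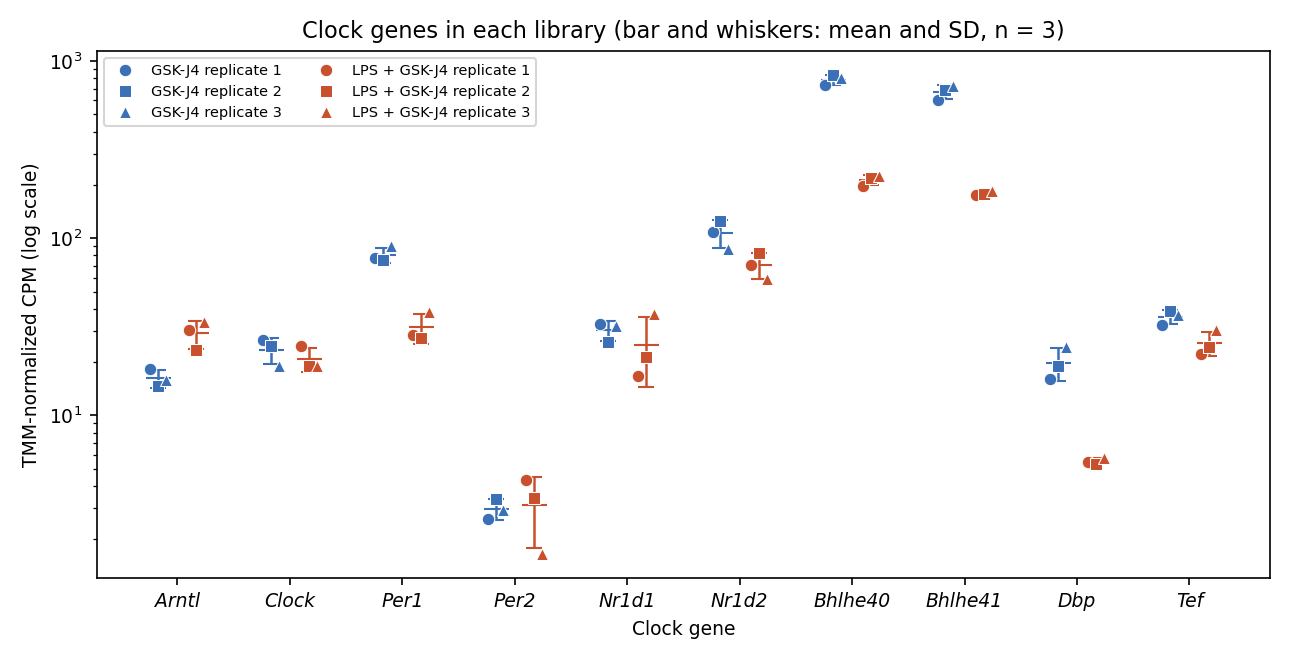
TMM-normalized CPM (vertical log axis) of the 10 clock genes in each of the 6 libraries, with blue symbols for GSK-J4, orange symbols for LPS + GSK-J4, a symbol shape for each replicate number, and the mean with its SD (n = 3). Bhlhe40, Bhlhe41, Per1, Dbp, Nr1d2 and Tef separate downward with LPS and Arntl separates upward, while Per2, Nr1d1 and Clock overlap. Nr1d2 and Tef separate by less and did not pass the test.

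Bhlhe40 and Bhlhe41 encode DEC1 and DEC2, basic helix-loop-helix repressors that compete with CLOCK and BMAL1 at E-boxes. Per length of exon they had the highest levels of the 10 clock genes in both groups, and their log2-fold changes, with that of Dbp, were the lowest of the panel. Bhlhe40 (mm10 chromosome 6, 108660629 to 108666925, plus strand) was at 729, 830 and 799 CPM in the GSK-J4 replicates 1, 2 and 3 and at 198, 219 and 225 CPM in the LPS + GSK-J4 replicates. The lowest GSK-J4 library thus had more than 3 times the level of the highest LPS + GSK-J4 library. Its mean went from 786 ± 51.8 to 214 ± 14.1 CPM (SD, n = 3), with log2-fold change -1.88 ± 0.11 (SE) and edgeR adjusted p = 3.99e-09. Bhlhe41 (chromosome 6, 145858243 to 145865558, minus strand) was at 606, 683 and 722 CPM with GSK-J4 and at 174, 177 and 185 CPM with LPS + GSK-J4. The libraries with LPS were nearly alike and all lay far below those without. Its mean went from 670 ± 59.4 to 179 ± 5.79 CPM, with log2-fold change -1.91 ± 0.11 (SE) and edgeR adjusted p = 3.99e-09. Bhlhe41 ranked 36 and Bhlhe40 ranked 41 from the lowest log2-fold change among all genes tested. Both passed the test and the fold limit under all 14 other settings tried, with log2-fold changes between -1.98 and -1.83. Bhlhe40 overlaps the antisense gene 0610040F04Rik, and the strand-specific counts used here keep fragments of the opposite strand apart. At most 12 antisense fragments lay on Bhlhe40 and at most 32 on Bhlhe41 in a library.

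Per1 and Per2 encode period proteins, which enter the nucleus with the cryptochromes and inhibit CLOCK and BMAL1. Per1 also answers quickly to cyclic AMP and to glucocorticoids. Per1 (chromosome 11, 69095217 to 69109960, plus strand) was at 76.9, 75.4 and 89.8 CPM with GSK-J4 and at 28.5, 27.5 and 38.4 CPM with LPS + GSK-J4. Each library with LPS lay below every library without, and replicate 3 was the highest of both groups. The mean went from 80.7 ± 7.92 to 31.5 ± 6.04 CPM (SD, n = 3), with log2-fold change -1.36 ± 0.16 (SE) and edgeR adjusted p = 1.38e-05. Without LPS + GSK-J4 replicate 3 the log2-fold change was -1.52, past the fold limit. Per2 (chromosome 1, 91415982 to 91459324, minus strand) had only 11, 15 and 8 counts in the GSK-J4 replicates and 11, 9 and 4 counts in the LPS + GSK-J4 replicates. The groups overlapped and the last of these libraries was near the floor. The log2-fold change of Per2 was 0.08 (edgeR adjusted p = 0.919). Its standard error of 0.43 was the largest of the panel, and its sign turned when single libraries were left out.

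Nr1d1 and Nr1d2 encode REV-ERBα and REV-ERBβ, heme-binding nuclear receptors that recruit the NCoR corepressor with HDAC3 to silence Arntl. Nr1d2 was the more abundant transcript of the pair. Nr1d1 (chromosome 11, 98767932 to 98775333, minus strand) was at 32.8, 25.8 and 31.9 CPM with GSK-J4 and at 16.8, 21.4 and 37.2 CPM with LPS + GSK-J4. Replicates 1 and 2 with LPS were below all libraries without it, and replicate 3 with LPS was above them. The log2-fold change was -0.27 (standard error 0.24, edgeR adjusted p = 0.474). This value rests on replicate 3 with LPS, because without it the log2-fold change was -0.65 (edgeR adjusted p = 0.0182), still above the limit of the test. Nr1d1 overlaps Thra, a thyroid hormone receptor gene on the opposite strand, and Thra itself was low at between 18 and 27 counts in a library. Nr1d2 (chromosome 14, 18204054 to 18239127, minus strand) was at 109, 125 and 87.3 CPM with GSK-J4 and at 71.0, 82.4 and 58.6 CPM with LPS + GSK-J4. The groups did not overlap, although replicate 3 with GSK-J4 came close to replicate 2 with LPS. The log2-fold change was -0.60 (standard error 0.16) and its edgeR adjusted p of 0.0114 just missed the limit. It passed the limit under 5 of the 14 other settings, among them DESeq2 (adjusted p = 0.00523), the removal of GSK-J4 replicate 3 (0.00487) and the removal of replicate 3 of both groups (0.000357).

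Dbp and Tef encode PAR-type bZIP activators that bind D-boxes and carry the rhythm of the loop to output genes. Dbp is among the transcripts with the widest daily swing in many tissues. Dbp (chromosome 7, 45705088 to 45710203, plus strand) was at 16.0, 19.1 and 24.2 CPM with GSK-J4 and at 5.46, 5.34 and 5.78 CPM with LPS + GSK-J4, where each library had 14 counts. All libraries with LPS lay close together and below those without. The mean went from 19.8 ± 4.12 to 5.53 ± 0.227 CPM (SD, n = 3), with log2-fold change -1.81 ± 0.26 (SE) and edgeR adjusted p = 8.09e-05. Dbp overlaps Sphk2 on the opposite strand, and in unstranded counts, where fragments shared by such genes are lost, the log2-fold change was -1.56. Tef (chromosome 15, 81802421 to 81826863, plus strand) was at 32.3, 38.8 and 36.7 CPM with GSK-J4 and at 22.2, 24.4 and 30.1 CPM with LPS + GSK-J4. The groups did not overlap, but the log2-fold change of -0.49 (standard error 0.18, edgeR adjusted p = 0.0557) did not pass the test, nor did it under any of the 14 other settings.

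Arntl and Clock encode the paired activators of the loop. Arntl was the member that rose. Arntl (chromosome 7, 113207465 to 113314126, plus strand) was at 18.2, 14.6 and 15.8 CPM with GSK-J4 and at 30.4, 23.3 and 33.4 CPM with LPS + GSK-J4. In CPM, all libraries with LPS lay above those without. The counts overlapped, at 77, 65 and 43 in the GSK-J4 replicates and 78, 61 and 81 in the LPS + GSK-J4 replicates. TMM factors were 1.05 to 1.31 with GSK-J4 and 0.821 to 0.832 with LPS + GSK-J4, so the separation in CPM depends on this scaling. The mean went from 16.2 ± 1.82 to 29.1 ± 5.23 CPM (SD, n = 3), with log2-fold change 0.84 ± 0.20 (SE) and edgeR adjusted p = 0.00551. The direction held under all 14 other settings (0.72 to 0.98), but the adjusted p passed the limit under only 8 of them. It was 0.0210 in DESeq2, 0.0110 without replicate 3 of both groups and between 0.0116 and 0.0388 when GSK-J4 replicate 1, 2 or 3 or LPS + GSK-J4 replicate 1 was left out. Clock (chromosome 5, 76209868 to 76304792, minus strand) was at 26.7, 24.7 and 19.1 CPM with GSK-J4 and at 24.6, 19.1 and 19.0 CPM with LPS + GSK-J4. The groups overlapped, and the log2-fold change was -0.18 (standard error 0.20, edgeR adjusted p = 0.56).

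**Figure D2:**
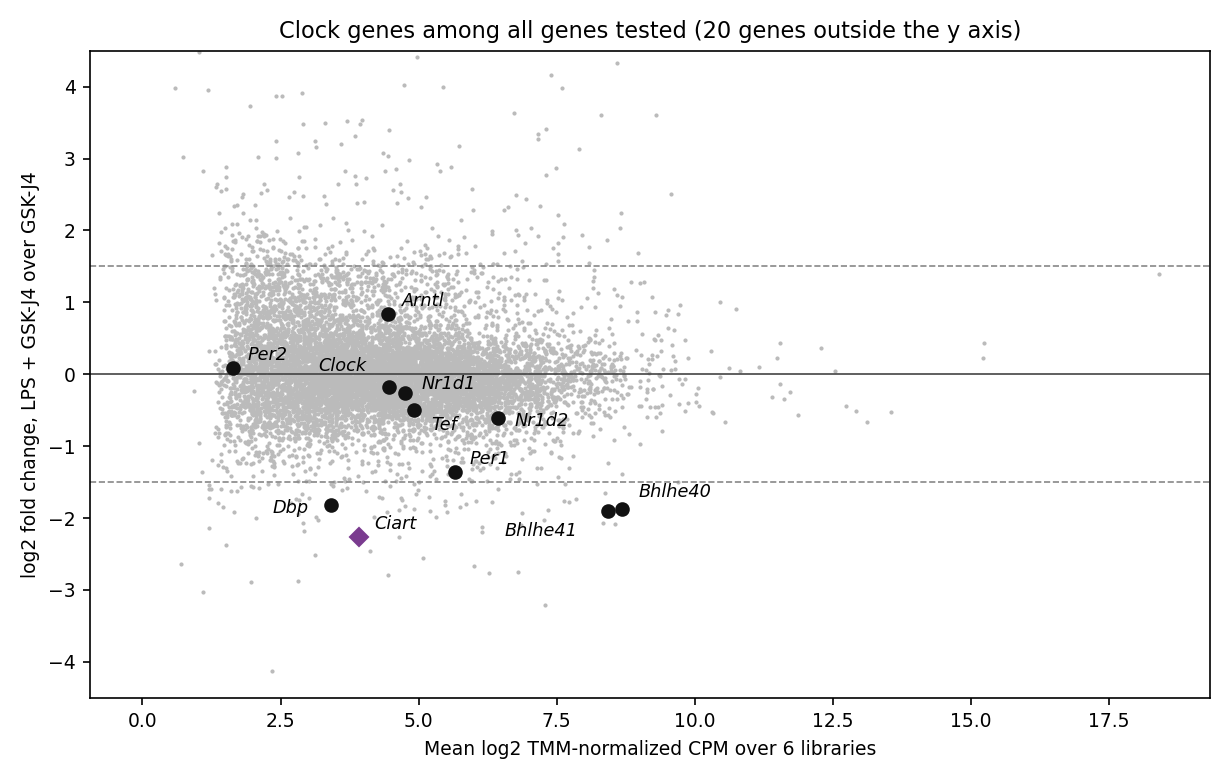
Log2-fold change of LPS + GSK-J4 over GSK-J4 (vertical axis) against the mean log2 CPM over 6 libraries (horizontal axis) for the 10133 genes tested (grey), with the clock genes in black and Ciart in purple. Genes beyond the range of the vertical axis are not drawn. Bhlhe40 and Bhlhe41 lie among the lowest fold changes at high expression, Dbp and Ciart at lower expression (mean log2 CPM 3.41 and 3.93), and dashed lines mark the fold limit of 1.5 in either direction.

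To relate the levels of different genes, CPM were divided by the length of all annotated exons of a gene in kilobases. On this scale of level, the order with GSK-J4 was Bhlhe40 (167 ± 11.0 CPM per kb, SD, n = 3), Bhlhe41 (99.8 ± 8.84), Nr1d2 (19.8 ± 3.5), Per1 (14.3 ± 1.41), Nr1d1 (9.80 ± 1.23), Dbp (6.61 ± 1.38), Tef (4.57 ± 0.421), Arntl (2.15 ± 0.242), Clock (1.71 ± 0.287) and Per2 (0.506 ± 0.0661). On this scale the transcripts of Bhlhe40 and Bhlhe41 thus stood far above those of Arntl and Clock. Protein was not measured. Only Arntl and Clock overlapped as neighbours in this order, where neighbouring levels were compared by the range of their libraries. With LPS + GSK-J4, Bhlhe40 (45.5 ± 3.00) and Bhlhe41 (26.6 ± 0.862) remained at the top, and Dbp (1.85 ± 0.0757) came to lie below Arntl (3.86 ± 0.695) and Tef (3.25 ± 0.519). The ranges of Nr1d2 and Nr1d1, Nr1d1 and Per1, Arntl and Tef, and Dbp and Clock overlapped there. The exon lengths are from GENCODE and may differ from those of the annotation used for counting.

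A ratio of counts within a library does not depend on the scaling between libraries. For the 5 pairs Bhlhe40 and Bhlhe41, Nr1d1 and Nr1d2, Per1 and Per2, Dbp and Tef, and Arntl and Clock, this ratio was compared between the groups by a 2-sided exact permutation test over libraries, in which 3 against 3 cannot give p below 0.1. The counts of Arntl were 0.681, 0.591 and 0.827 times those of Clock in the GSK-J4 replicates and 1.24, 1.22 and 1.76 times those of Clock in the LPS + GSK-J4 replicates. All ratios with LPS lay above all ratios without, with a difference of 0.99 in mean log2 ratio (exact permutation p = 0.1, adjusted over the 5 pairs 0.167). These are ratios of counts of genes of unequal length, so whether a ratio is above or below 1 does not say which transcript was the more abundant. The counts of Dbp were between 0.491 and 0.660 times those of Tef with GSK-J4 and between 0.192 and 0.246 times with LPS. This difference was -1.29 in mean log2 ratio (exact permutation p = 0.1, adjusted 0.167), again with no overlap of the groups. The proportion of Bhlhe40 to Bhlhe41 overlapped between the groups, with 1.11 to 1.21 counts of Bhlhe40 for each count of Bhlhe41 under GSK-J4 and 1.13 to 1.24 under LPS + GSK-J4. The difference in mean log2 ratio was 0.02 (exact permutation p = 0.6), while each group's SD was 0.07. The ratio of Per1 to Per2 was 29.6, 22.4 and 30.6 with GSK-J4 and 6.64, 8 and 23.3 with LPS, and the groups overlapped, since the last of these values, which rests on 4 counts of Per2, lay above the lowest without LPS. The difference in mean log2 ratio was -1.38 with 0.5 added to each count (exact permutation p = 0.1, adjusted 0.167), but the exact permutation p was 0.2 with 0.1 added or with unstranded counts. The ratio of Nr1d1 to Nr1d2 was between 0.206 and 0.366 with GSK-J4 and between 0.236 and 0.634 with LPS, and its groups overlapped (exact permutation p = 0.8).

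**Figure D3:**
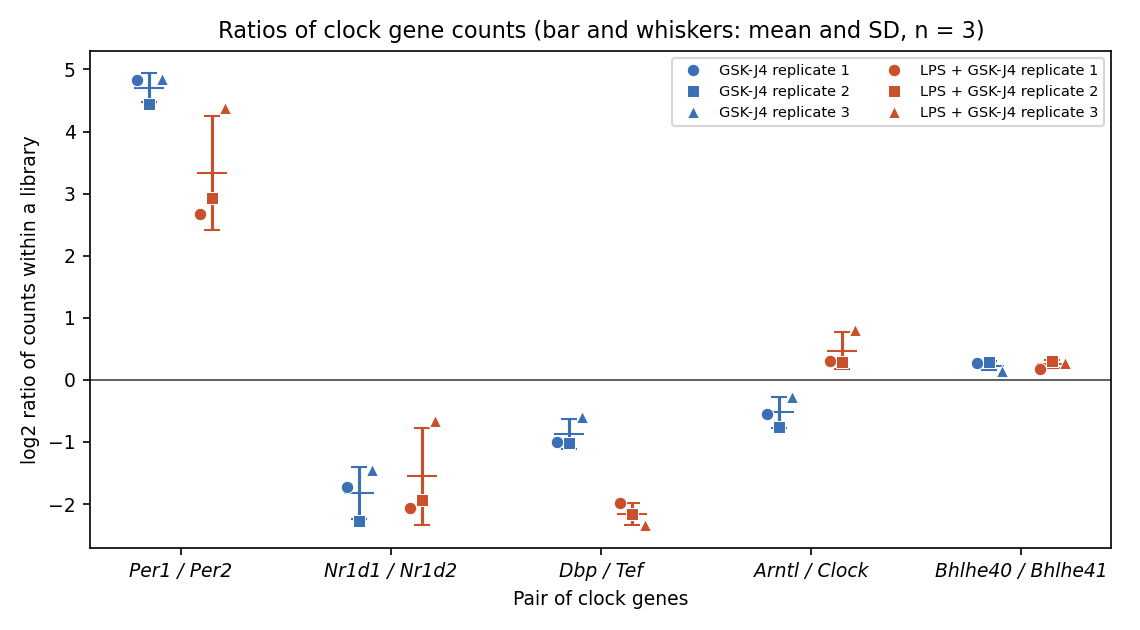
Log2 ratio of the counts of 5 pairs of clock genes within each library (vertical axis), with 0.5 added to each count, blue for GSK-J4 and orange for LPS + GSK-J4, and the mean with its SD (n = 3). Arntl / Clock is higher and Dbp / Tef lower with LPS without overlap, the highest Per1 / Per2 point with LPS (4.38) lies close to the lowest without (4.44), and Bhlhe40 / Bhlhe41 overlaps between the groups.

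Promoter sequences of some clock genes are shown with the E-box, the element through which CLOCK with BMAL1, and the DEC repressors, act. Whether this element had a part in the changes was not tested. The sequences are from RefSeq on GRCm38.p6 (the mm10 assembly), in windows of 250 bases before and 50 bases after a start site, and 8 of the 10 clock genes have such a window (Per2 and Bhlhe40 do not). On both strands, CACGTG was found in at least 1 window each of Per1, Tef and Bhlhe41, that is 3 of 8 genes. It was in 7.15% of all 32851 windows (8.09% of genes). Per1 has 2 windows, both inside the span of the gene given above, and the second (chr11:69099902-69100201) has no CACGTG. Per1 and Bhlhe41 fell and Tef did not pass the test, while Dbp fell and has no CACGTG in this window. Ciart, a further repressor of the loop and not a member of the panel, has 3 copies of CACGTG. Its fall is given below, and it was the only gene outside the panel searched by name. Whether clock genes that fell carry CACGTG more often than other clock genes was therefore not tested. The 250 bases before 1 start site of Per1, Bhlhe41, Ciart and Dbp are given 5′ to 3′ on the coding strand, with CACGTG in capitals. Tef, which has CACGTG in both of its windows, is not printed. The first base of the motif lies at position -166 in the first window of Per1 (chr11:69098699-69098948, plus strand). In Bhlhe41 (chr6:145865421-145865670, minus strand) it lies at -153. In Ciart (chr3:95882229-95882478, minus strand) it lies at -116, -58 and -44, and the window of Dbp (chr7:45704997-45705246, plus strand) is shown beside them as a gene that fell without the motif there.
Per1: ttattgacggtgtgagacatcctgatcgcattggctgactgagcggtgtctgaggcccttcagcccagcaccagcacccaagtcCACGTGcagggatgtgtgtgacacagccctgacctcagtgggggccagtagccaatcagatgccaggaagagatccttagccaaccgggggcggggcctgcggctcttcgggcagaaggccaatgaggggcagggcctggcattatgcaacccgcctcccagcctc
Bhlhe41: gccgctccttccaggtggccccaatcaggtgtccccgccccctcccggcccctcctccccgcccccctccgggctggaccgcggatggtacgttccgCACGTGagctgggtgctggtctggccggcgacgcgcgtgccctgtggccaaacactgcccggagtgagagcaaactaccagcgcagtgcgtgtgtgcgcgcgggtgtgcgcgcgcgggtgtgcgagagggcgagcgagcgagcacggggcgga
Ciart: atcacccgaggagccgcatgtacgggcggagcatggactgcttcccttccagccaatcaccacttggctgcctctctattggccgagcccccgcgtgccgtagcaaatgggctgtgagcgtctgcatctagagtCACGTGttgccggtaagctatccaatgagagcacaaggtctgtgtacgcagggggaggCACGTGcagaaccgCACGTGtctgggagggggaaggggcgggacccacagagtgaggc
Dbp: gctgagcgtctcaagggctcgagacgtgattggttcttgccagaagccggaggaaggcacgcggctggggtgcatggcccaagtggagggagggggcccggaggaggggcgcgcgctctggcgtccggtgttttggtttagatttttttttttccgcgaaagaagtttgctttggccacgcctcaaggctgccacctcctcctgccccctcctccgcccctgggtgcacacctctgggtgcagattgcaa

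Arntl, the member that rose, is the textbook target of the REV-ERB and ROR receptors through ROR elements. The form ANNT directly followed by AGGTCA was found in 1 window of Arntl and in no other member, and in 0.700% of all windows. The match begins 27 bases after the start site of that window, and the 30 bases around it (chr7:113207528-113207557, plus strand) are shown with the element in capitals.
Arntl: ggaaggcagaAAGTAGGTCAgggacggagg
The related form ANNT followed by GGGTCA (0.913% of all windows), the D-box TTANGTAA (2.32%) and the full cyclic AMP response element TGACGTCA (1.79%) were in no window of the panel. The shorter element TGACG, which is part of TGACGTCA, was in both windows of Per1 and in 20.8% of all windows. The E-box variant CACGTT was in the window of Nr1d1 only (4.68% of all windows). These are matches of letters and not measured binding.

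Around the panel, 43 other genes of the clock were taken from 5 lists, of which 38 passed the filter on low counts. LPS lowered 8 of them and raised 2, and their median log2-fold change was -0.09. The shares of all genes given above, 5.46% lower and 8.42% higher, apply here as well. These lists too were chosen with earlier results of these data known. Among the other loop genes, Ciart, whose product inhibits CLOCK and BMAL1, fell from 34.9, 31.2 and 32.6 CPM with GSK-J4 to 6.24, 7.25 and 7.02 CPM with LPS. Its log2-fold change of -2.26 (standard error 0.21, edgeR adjusted p = 7.49e-07) was lower than that of any member, and it ranked 15 from the lowest among all genes. Rorb, which encodes a ROR receptor, rose from 5.75 ± 0.339 to 15.3 ± 1.88 CPM (SD, n = 3; edgeR adjusted p = 0.000579), at between 15 and 42 counts in a library. The summed astrocyte, oligodendrocyte lineage and neuronal markers given above were also higher with LPS, and the cell type that carried Rorb was not tested. The cryptochrome genes Cry1 (log2-fold change -0.14, edgeR adjusted p = 0.65) and Cry2 (0.19, adjusted p = 0.813), Per3 (-0.38, adjusted p = 0.394) and Rora (-0.16, adjusted p = 0.553) did not pass the test. Nfil3, a repressor at D-boxes, was at 37.5 ± 4.99 CPM with GSK-J4 and 51.5 ± 6.65 CPM with LPS (edgeR adjusted p = 0.047, not past the limit). Npas2, a relative of Clock, and Hlf, a relative of Dbp, had at most 3 counts in any library and were not tested, nor was Arntl2, which had no count.

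Of the 12 tested genes whose products modify clock proteins, 2 fell and none rose. Csnk1e, a casein kinase that marks period proteins for degradation, fell from 113 ± 14.8 to 55.0 ± 6.83 CPM (SD, n = 3), with log2-fold change -1.04 and edgeR adjusted p = 7.12e-05. Its relatives Csnk1d (-0.39, edgeR adjusted p = 0.0517) and Csnk1a1 (0.05, adjusted p = 0.803) did not pass the test. Usp2, a deubiquitinase with a marked daily rhythm, fell from 30.1 ± 6.49 to 12.4 ± 3.67 CPM, with log2-fold change -1.26 and edgeR adjusted p = 0.00107. The 5 genes of the NCoR and HDAC3 corepressor that serves REV-ERB all missed the test, with log2-fold changes between -0.51 and 0.58. Of 8 clock-controlled output genes, Tsc22d3 (log2-fold change -0.81), Por (-0.81), Nampt (-0.69) and Lonrf3 (-0.54) fell and Klf10 (1.10) rose. The calls of these 4 genes that fell depended on single libraries. Tsc22d3 kept its call under 8 of the 14 other settings, Lonrf3 under 10, Nampt under 11 and Por, which lost it without LPS + GSK-J4 replicate 2, under 13. Nampt, the rate-limiting enzyme of NAD salvage, was at 248 ± 38.6 CPM with GSK-J4 and 154 ± 34.0 CPM with LPS. Of 6 genes on the paths that reset the clock, Sik1, a kinase induced by cyclic AMP, fell from 82.1 ± 7.33 to 13.8 ± 0.201 CPM, with log2-fold change -2.56 ± 0.16 (SE) and edgeR adjusted p = 9.39e-09. The other 5 of these genes did not pass the test. They were Creb1 (0.66, edgeR adjusted p = 0.0367), Crem (0.42, edgeR adjusted p = 0.327) and Sgk1 (-0.24, edgeR adjusted p = 0.149). The glucocorticoid receptor gene Nr3c1 (0.29, edgeR adjusted p = 0.166) and Fkbp5 (0.11, edgeR adjusted p = 0.773) were the others.

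**Figure D4:**
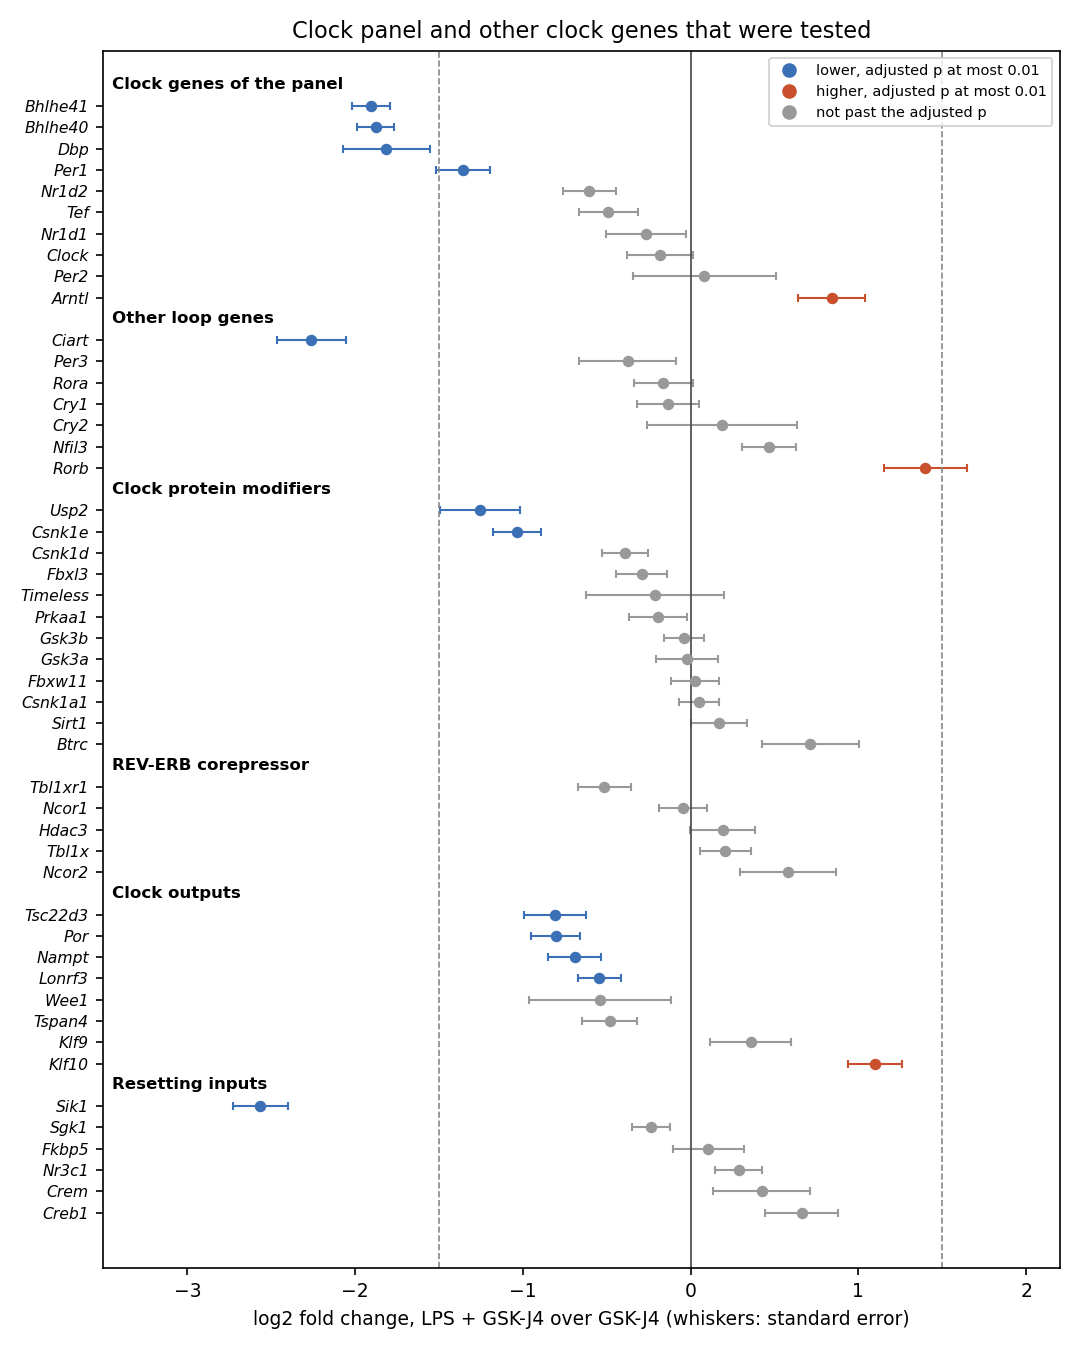
Log2-fold changes of LPS + GSK-J4 over GSK-J4 with their standard errors for the 10 clock genes and the 38 other clock genes tested, in their lists. Blue marks genes that fell and orange marks genes that rose by edgeR's test, grey marks genes that did not pass it, and dashed lines mark 1.5 in either direction; Sik1 and Ciart lie furthest to the left.

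The profiles most like those of the members that moved furthest were sought over the 6 libraries, as the root mean square difference of log2 CPM after each gene's mean was subtracted. For Bhlhe41, the nearest of all genes was its paralog Bhlhe40 (difference 0.059), followed by Arfgef2 (0.076) and the cytokine receptor gene Il21r (0.094). Dbp ranked 7, Ciart 20 and Per1 69 in likeness to Bhlhe41 among all tested genes. For Arntl, the nearest were Papd7 (0.073), Plekho2 (0.081) and Ttl (0.089), and no member of the panel was nearer than rank 5211, that of Clock. The measure takes in the fold change between the groups as well as the replicate deviations, so genes of like fold change rank high by construction.

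The members also varied among replicates of a group. Replicate 3 lay above the mean of replicates 1 and 2 for Per1, by 0.24 (log2 CPM) with GSK-J4 and 0.45 with LPS, and below it for Nr1d2, with differences of -0.42 and -0.38. For Nr1d1 the difference was 0.14 with GSK-J4 and 0.97 with LPS. Bhlhe40 and Bhlhe41 differed by at most 0.17 in this way. The values without replicate 3 of both groups left Bhlhe40, Bhlhe41, Dbp and Per1 lower (log2-fold changes from -1.89 to -1.44).

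**Figure D5:**
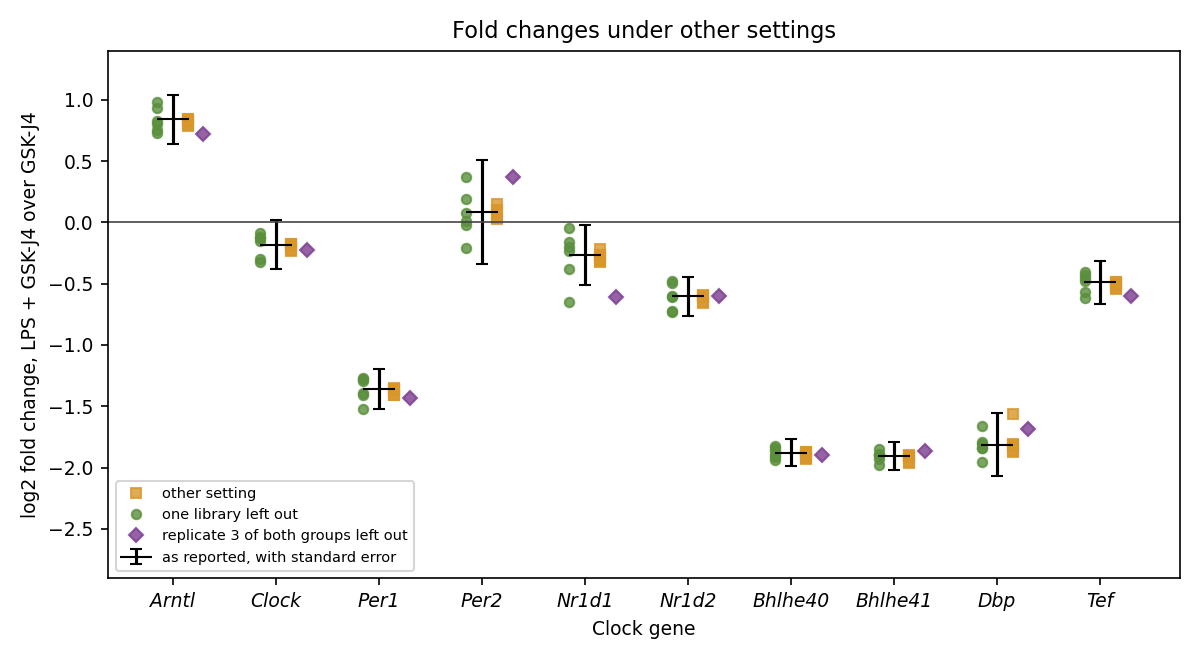
Log2-fold change of LPS + GSK-J4 over GSK-J4 for each clock gene as reported (black bar with its standard error) and under other settings, with green points for fits without a single library, purple diamonds without replicate 3 of both groups, and yellow squares for other counts, scaling, filters or tests. Bhlhe40 and Bhlhe41 stay between -1.98 and -1.83, whereas Nr1d1 spreads from -0.65 to -0.05 and Per2 crosses 0.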

How the data were processed

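RNA of PM was depleted of ribosomal RNA, made into libraries with a directional kit and sequenced from both ends. The submitters' processing notes name Trimmomatic 0.33, STAR 2.5.1 and the mm10 build, and the authors deposited STAR's raw counts of fragments per gene, without normalization and in 3 columns for strand; the annotation used for counting is not given in the sources used here. STAR counts only fragments that map once and overlap 1 gene. The column of the reverse strand was analysed; the opposite one had 0.966 to 1.38% of the fragments on genes. Lines of unassigned fragments were left out.

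Titles gave the groups and replicate numbers. The test was run with edgeR 4.0.16 and limma 3.58.1 under R 4.3.3, after scaling with TMM and a filterByExpr filter (minimum count 10, minimum total 15), as the robust quasi-likelihood test without covariates. Standard errors are the log2-fold change divided by the root of the F value. Genes rose or fell at an adjusted p of at most 0.01. The functions were checked on simulated data. The members, lists and tests were chosen with earlier results of these data known, and the authors' tool, DESeq2 (here 1.42.0), was an alternative. The genes named are the members, the listed clock genes that passed the test or belong to the loop, and the nearest profiles. Other listed genes were chosen after their values were seen (Csnk1d, Csnk1a1, Creb1, Crem, Nr3c1, Fkbp5, Sgk1, Arntl2). Positions and exon lengths are from GENCODE M21. Figures were made in Python 3.11.15 with matplotlib 3.10.9.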

Additional observations from a re-analysis of the deposited data

How the results depend on the processing

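The alternatives were DESeq2's size factors or its Wald test, no filter or at least 10 counts in every library, unstranded counts, removal of Rn45s, Mir6236 and Lars2, looser limits, the replicate number as a block, each library left out, and, chosen after the data were seen, replicate 3 of both groups left out. The falls of Bhlhe40, Bhlhe41, Dbp and Per1 passed the test under each of these. The number of clock genes that rose went from 1 to 0 with the DESeq2 Wald test and without replicate 3 of both groups, and was between 0 and 1 when single libraries were left out. The cause was not tested. The log2-fold change of Per2 turned to -0.02 without GSK-J4 replicate 1 and to -0.21 without LPS + GSK-J4 replicate 1, at 4 to 15 counts, and without single libraries it ranged from -0.21 to 0.37. Of the other clock genes, 4 rose with an adjusted p limit of 0.05 and 5 with the replicate block, and between 4 and 8 fell when single libraries were left out (5 without GSK-J4 replicate 1 or 2, 4 without LPS + GSK-J4 replicate 2).

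Over all genes, 1386 rose and 1004 fell when the adjusted p limit was 0.05, and 844 rose and 285 fell when a fold limit of 1 (log2) was set beside it. With at least 10 counts in every library 176 rose past the study's limits, without a filter 858 fell at the adjusted p, and with the replicate block 1016 fell. Without single libraries between 312 and 679 fell (359 without GSK-J4 replicate 2, 312 without LPS + GSK-J4 replicate 2). The difference in the log2 ratio of Dbp to Tef was -1.03 in unstranded counts, where fragments shared with Sphk2 are lost. With the block, Nr1d2 also passed the test (edgeR adjusted p = 1.78e-05). The replicate numbers are not shown to pair the libraries, since deviations from the group means of libraries with the same number correlated with r = -0.01, 0.10 and 0.28 across genes, and not every library correlated best with its own number. Per2, at a few counts per library, and the tests of ratios, limited to p of 0.1, are the least precise results.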
